A study of Mus musculus with 6 samples.

Results

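Coenzyme Q, or ubiquinone, is the lipid that carries electrons within the inner mitochondrial membrane. The transcripts of 10 genes of its synthesis, Pdss1, Pdss2, Coq2, Coq3, Coq4, Coq5, Coq6, Coq7, Coq9 and Coq10a, were described in the inguinal white fat of cold-exposed mice with and without adipocyte Foxp4. The genes were chosen by name, and all 10 were found among the 21900 distinct gene symbols of the deposited table. Each of the 10 passed the filter on low values, a mean of at least 1 FPKM (fragments scaled to exon length and library size) in either group.

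The study measured polyadenylated RNA in 6 samples of this subcutaneous fat depot, 3 per genotype, from C57BL/6 mice 2 months of age. All 6 had been moved from 22 °C to 4 °C for 7 days, so no sample stands for fat at housing temperature. Controls are labelled Foxp4fl/fl, with both alleles of this forkhead transcription factor gene floxed and no Cre named. Knockouts are labelled Foxp4AdipoQΔ/Δ, in which the Adipoq promoter, active in mature adipocytes, drives the deletion. The Cre driver and the deletion go together in the labels, and their effects cannot be told apart. The labels do not say whether a sample was 1 mouse or a pool, and the p-values below measure only the spread between these samples.

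Foxp4 itself was at 5.76, 4.01 and 4.62 FPKM in controls and 1.92, 1.71 and 1.64 FPKM in knockouts. The groups did not overlap, with a log2 fold change of -1.06 (SE 0.12, adjusted p = 0.07 in limma). Libraries held 13181477 to 16000009 recovered reads, and no pair of libraries agreed within counting noise (chi-square per degree of freedom of at least 9.26). Of 10787 genes tested with limma, 1 passed an adjusted p of 0.05, which is 0.00927% of them. The adipocyte marker Adipoq was abundant in both groups, with 1212 ± 69.0 FPKM for controls and 872 ± 56.9 FPKM for knockouts (SD, n = 3). Lymphocyte markers summed to at most 4.43 FPKM and epithelial markers to at most 1.13 FPKM in any library, with Cd79a and Krt18 the most abundant of each, and the epithelial markers Krt14 and Krt15 were listed at 0 throughout.

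The molecule joins a benzoquinone head to a long isoprenoid tail. The tail comes from the mevalonate pathway and is assembled by the Pdss1 and Pdss2 proteins, Coq2 attaches it to the head group precursor, and a complex of Coq proteins on the matrix side of the membrane then modifies the ring. In brown and beige fat the finished molecule takes electrons from fatty acid, glycerol phosphate and succinate oxidation and hands them to complex III, which feeds the respiration that uncoupling turns into heat.

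Sequences before the start site are shown for Coq7, Pdss1 and Pdss2. In these genes every knockout lay above every control, as described further on, and the RefSeq start equals the start of the annotated gene. They were chosen after the values were seen. Each is the 250 bases before the start, 5′ to 3′ on the gene's strand, from RefSeq on GRCm38.p6. Coq7 lies on the minus strand (chr7:118533357-118533606), and Pdss1 (chr2:22895272-22895521) and Pdss2 (chr10:43221236-43221485) on the plus strand. Of the Pdss1 stretch, 201 bases lie in an exon of A130006I12Rik, a pseudogene on the other strand. Capitals mark letters that match 1 of 4 motifs searched on both strands.

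Coq7: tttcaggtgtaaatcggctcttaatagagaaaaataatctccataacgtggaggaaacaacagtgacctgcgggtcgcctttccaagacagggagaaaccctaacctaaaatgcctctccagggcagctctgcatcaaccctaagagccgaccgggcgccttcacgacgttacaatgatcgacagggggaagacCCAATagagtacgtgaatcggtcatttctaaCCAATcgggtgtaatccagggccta

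Pdss1: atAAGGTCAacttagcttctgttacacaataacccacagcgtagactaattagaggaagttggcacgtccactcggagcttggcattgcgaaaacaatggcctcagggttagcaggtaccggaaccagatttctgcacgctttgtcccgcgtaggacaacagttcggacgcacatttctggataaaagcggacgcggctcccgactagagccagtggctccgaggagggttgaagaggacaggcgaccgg

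Pdss2: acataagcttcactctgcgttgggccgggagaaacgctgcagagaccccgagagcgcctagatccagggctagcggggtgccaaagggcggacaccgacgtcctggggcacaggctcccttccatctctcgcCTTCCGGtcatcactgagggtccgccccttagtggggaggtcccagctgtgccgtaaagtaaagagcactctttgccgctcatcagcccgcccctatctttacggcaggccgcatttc

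The motifs were CCAAT, the letters AAGGTCA bound by estrogen-related receptors, CCGGAAG bound by GABPA, and CGCATGCG from the site of NRF1. No base is shared by matches of different motifs in these 3 stretches. Before its start Coq7 held only CCAAT, at -56 to -52 and -25 to -21 counted from the start. Pdss1 held only AAGGTCA, at -248 to -242, and Pdss2 only CCGGAAG on the opposite strand, at -118 to -112. The 3 printed stretches have no searched motif in common, but this rests on where they end: Pdss1 holds CCGGAAG past its start, at 25 to 31 and 39 to 45, and so shares that motif with Pdss2. Over the full 300-base windows, which run 50 bases past the start, 9 of the 10 genes had an entry. CCAAT was in 2 of these 9, in 37.4% of all 32851 windows of this length and in 42.7% of 8601 tested genes. CCGGAAG was in 3 of 9 (Pdss1, Pdss2 and Coq6), in 8.86% of windows and in 20.8% of tested genes. AAGGTCA was in 2 of 9, Pdss1 and Coq10a, in 4.72% of windows and in 3.81% of tested genes. The Coq10a match lies in a window (chr10:128369988-128370287) wholly outside the gene as annotated here. The other Coq10a window (chr10:128368931-128369230), which spans the annotated start, held no match. CGCATGCG was in 0 of 9, in 1.87% of windows and in 4.46% of tested genes. A match describes letters and shows no binding. In the first listed window of each gene the median GC content was 52.0% over the 9 genes (39.7 to 68.3%) and 61.3% over the tested genes.

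Levels of the 10 genes spanned a wide range in control fat. Coq9, a lipid-binding protein that presents its substrate to Coq7, stood far above the rest at 84.9 ± 11.7 FPKM (SD, n = 3). It made up 39.9 to 43.8% of the summed FPKM of the 10 genes in every library, control or knockout. Coq2, Coq5, Coq6 and Coq10a followed, with control means of 27.2, 25.7, 19.1 and 18.2 FPKM. Neighbours in this order from Coq2 to Coq10a had overlapping control values. Coq3 (14.2 FPKM) and Coq7 (7.28 FPKM) came next, each below every control value of the gene before it. The lowest were Coq4, Pdss2 and Pdss1, at 2.90, 2.45 and 1.86 FPKM, so both tail-forming subunits were the scarcest transcripts of the pathway's enzymes listed here. Every read number below is recovered from FPKM and exon length. The fewest were 106 reads, for Pdss1 in control replicate 1, where counting error alone is 9.71% of the value. For Coq9 it was at most 1.77%.

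**Figure D1:**
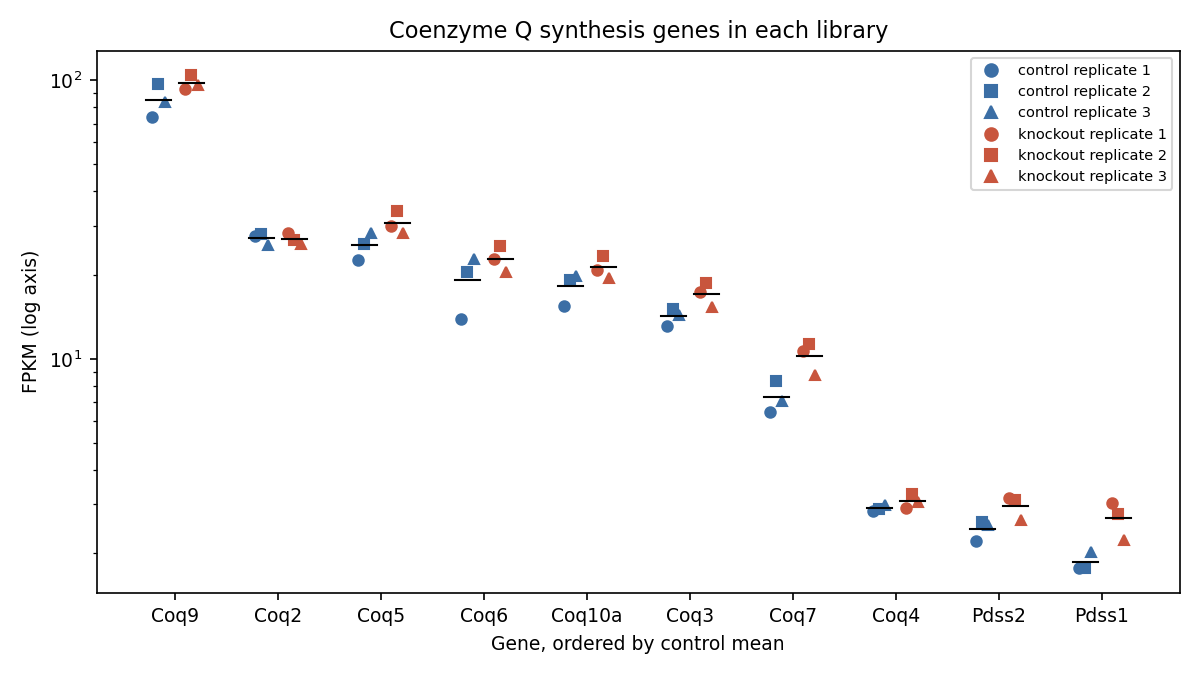
FPKM of the 10 coenzyme Q synthesis genes in each of 6 libraries, on a log axis, with blue points for controls, red points for knockouts and bars for group means. Coq9 lies highest with a control mean of 84.9 FPKM and Pdss1 lowest with 1.86 FPKM, and in Coq7, Coq3, Pdss2 and Pdss1 all red points lie above all blue points.

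Most of the pathway had somewhat higher values in the knockouts, with 9 of 10 fitted log2 fold changes above 0 against 34.0% of all genes tested. Coq7 and Pdss1 had the largest, whereas Coq2 and Coq4 were close to level between genotypes. None of the 10 passed an adjusted p of 0.05 over all genes in limma, nor in voom on recovered reads. In limma 3 (Coq7, Pdss1 and Coq3) were higher at an unadjusted p of 0.05, where 6.98% of all genes were higher, and in voom 4 were, against 6.61% of all genes there. None was lower at that p, against 17.1% of all genes. In 4 genes, Coq7, Pdss1, Pdss2 and Coq3, every knockout lay above every control, against 8.48% of genes tested. The median log2 fold change of the 10 was 0.24, beside -0.08 over all genes tested, and it was 0.14 without control replicate 1. An exact permutation test of 3 against 3 samples cannot give a two-sided p below 0.10.

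These counts depended on how libraries were scaled. With median-of-ratios factors, which bring the median of all genes from -0.08 to -0.0011, 7 members of the pathway passed an unadjusted p of 0.05 as higher, where 13.0% of all genes were higher and 9.28% lower, and 0 passed an adjusted p of 0.05. Coq2 then also lay above 0, making 10 of 10, where 49.8% of all genes lay above 0. With 1 library fewer, non-overlap is easier to reach. Without control replicate 3 every knockout lay above every control in 7 of the 10, against 14.9% of all genes in the same comparison. Without knockout replicate 3 the number higher at an unadjusted p of 0.05 was 5, against 7.29% of all genes. It fell to 2 without control replicate 1, knockout replicate 1 or knockout replicate 2, against 5.1%, 4.84% and 3.73% of all genes.

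Pdss1 and Pdss2 encode the subunits of the prenyl diphosphate synthase that builds the isoprenoid tail. Pdss1 (chromosome 2, 22895522 to 22940266, plus strand, mm10) was at 1.77, 1.77 and 2.03 FPKM in controls and 3.02, 2.78 and 2.24 FPKM in knockouts. All 3 knockouts lay above all controls, with knockout replicate 3 nearest to them. The ratio of means was 1.44, and the log2 fold change on the FPKM + 1 scale, which understates that of so low a gene, was 0.36 (SE 0.11, 95% interval 0.11 to 0.61, unadjusted p = 0.012, adjusted p = 0.12 in limma). On the scale of recovered reads it was 0.51. Pdss1 exons share 194 bases with Abi1 and 207 with A130006I12Rik on the opposite strand, and whether the counting used strand is not given in the sources used here.

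Pdss2 (chromosome 10, 43221486 to 43464882, plus strand) was at 2.21, 2.61 and 2.54 FPKM in controls and 3.16, 3.11 and 2.65 FPKM in knockouts. Here too the groups did not overlap, but knockout replicate 3 exceeded control replicate 2 by little. The log2 fold change was 0.20 (SE 0.09, 95% interval -0.02 to 0.42, adjusted p = 0.24 in limma). The partners differed in size: Pdss2 stood at 1.25, 1.47 and 1.25 times Pdss1 in controls and 1.05, 1.12 and 1.18 times in knockouts, without overlap. This ratio was formed after the values were seen and was not tested.

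Coq2 encodes the prenyltransferase that joins the tail to 4-hydroxybenzoate. On chromosome 5 (100654723 to 100675140, minus strand), it was at 27.7, 28.1 and 25.6 FPKM in controls and 28.3, 26.8 and 25.9 FPKM in knockouts. The groups overlapped throughout, and the spread within a genotype was 1.36 FPKM in controls and 1.20 FPKM in knockouts. The fitted difference was -0.01 on the log2 scale, with a 95% interval of -0.19 to 0.17 (SE 0.08, adjusted p = 0.96 by limma), and it turned above 0 under both scalings tried. Coq2 was the only 1 of the 10 not lowest in control replicate 1.

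The ring-modifying enzymes came next. Coq6, a flavin-dependent hydroxylase of the ring (chromosome 12, 84361657 to 84373796, plus strand), was at 13.9, 20.6 and 22.9 FPKM in controls and 22.8, 25.5 and 20.5 FPKM in knockouts. The groups overlapped, and control replicate 1 was far below the other 5 libraries. Its log2 fold change of 0.27 (SE 0.18, 95% interval -0.15 to 0.69, adjusted p = 0.38 in limma) was 0.07 without that library. Coq6 exons share 128 bases with Fam161b on the opposite strand.

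Coq3 encodes the methyltransferase that acts on ring oxygens (chromosome 4, 21879673 to 21912162, plus strand). It was at 13.2, 15.1 and 14.3 FPKM in controls and 17.4, 18.7 and 15.4 FPKM in knockouts, without overlap, and again knockout replicate 3 lay closest to the controls. The log2 fold change was 0.25 (SE 0.10, 95% interval 0.03 to 0.48, unadjusted p = 0.031, adjusted p = 0.17 in limma). The unadjusted p lay between 0.053 and 0.11 in limma when control replicate 1 or 3 or knockout replicate 1 or 2 was left out, so Coq3 did not keep that call in 4 of 6 such fits. Coq5, the methyltransferase for a ring carbon (chromosome 5, 115279666 to 115296972, plus strand), was at 22.7, 25.9 and 28.4 FPKM in controls and 30.1, 33.9 and 28.3 FPKM in knockouts. Knockout replicate 3 fell just under control replicate 3, and the groups overlapped. With nearly the same fitted change as Coq3, 0.25 on the log2 scale (SE 0.11, interval -0.0014 to 0.51), Coq5 had an adjusted p of 0.21 in limma, and its unadjusted p of 0.051 in that fit narrowly missed 0.05.

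Coq7, the di-iron hydroxylase of the penultimate step, had the largest fitted difference of the 10 on the FPKM + 1 scale, while by ratio of means Pdss1 (1.44) stood just above it (1.41). On chromosome 7 (118509659 to 118533356, minus strand), it was at 6.43, 8.33 and 7.09 FPKM in controls and 10.7, 11.3 and 8.76 FPKM in knockouts. All knockouts lay above all controls. These values rest on 583 to 1015 reads per library. The log2 fold change was 0.44 (SE 0.12, 95% interval 0.15 to 0.73, unadjusted p = 0.0085, adjusted p = 0.11 in limma) and lay between 0.37 and 0.54 when any 1 library was left out, with an unadjusted p under 0.05 in each such fit.

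Its partner Coq9 (chromosome 8, 94838321 to 94854895, plus strand) was at 73.9, 97.2 and 83.6 FPKM in controls and 93.5, 104 and 96.6 FPKM in knockouts. Control replicate 2 lay above 2 of the knockouts. The log2 fold change was 0.21 (SE 0.11, 95% interval -0.05 to 0.48, adjusted p = 0.29 in limma), and 0.12 without control replicate 1. Coq9 transcripts thus exceeded those of Coq7 by 11.5, 11.7 and 11.8 times in controls, a narrow range, and by 8.76, 9.20 and 11.03 times in knockouts. The genotypes did not overlap in this ratio, which was also formed after the values were seen and not tested.

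Coq4 supports the assembly of the Coq protein complex. On chromosome 2 (29787493 to 29797935, plus strand), it was at 2.84, 2.88 and 2.99 FPKM in controls and 2.90, 3.28 and 3.07 FPKM in knockouts. The groups overlapped, and the log2 fold change was 0.06 (SE 0.08, 95% interval -0.12 to 0.25, adjusted p = 0.64 in limma). Trub2 on the opposite strand shares 921 bases, or 27.1%, of the Coq4 exon length, so Coq4 levels are uncertain if strand was not used in counting.

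Coq10a encodes a lipid-binding protein thought to act on the finished molecule and not in making it. The gene (chromosome 10, 128363100 to 128368997, minus strand) was at 15.5, 19.2 and 19.9 FPKM in controls and 20.9, 23.4 and 19.5 FPKM in knockouts. Knockout replicate 3 lay below control replicate 3, and the groups overlapped. The log2 fold change was 0.22 (SE 0.12, 95% interval -0.05 to 0.49, adjusted p = 0.29 in limma), and 0.11 without control replicate 1.

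**Figure D2:**
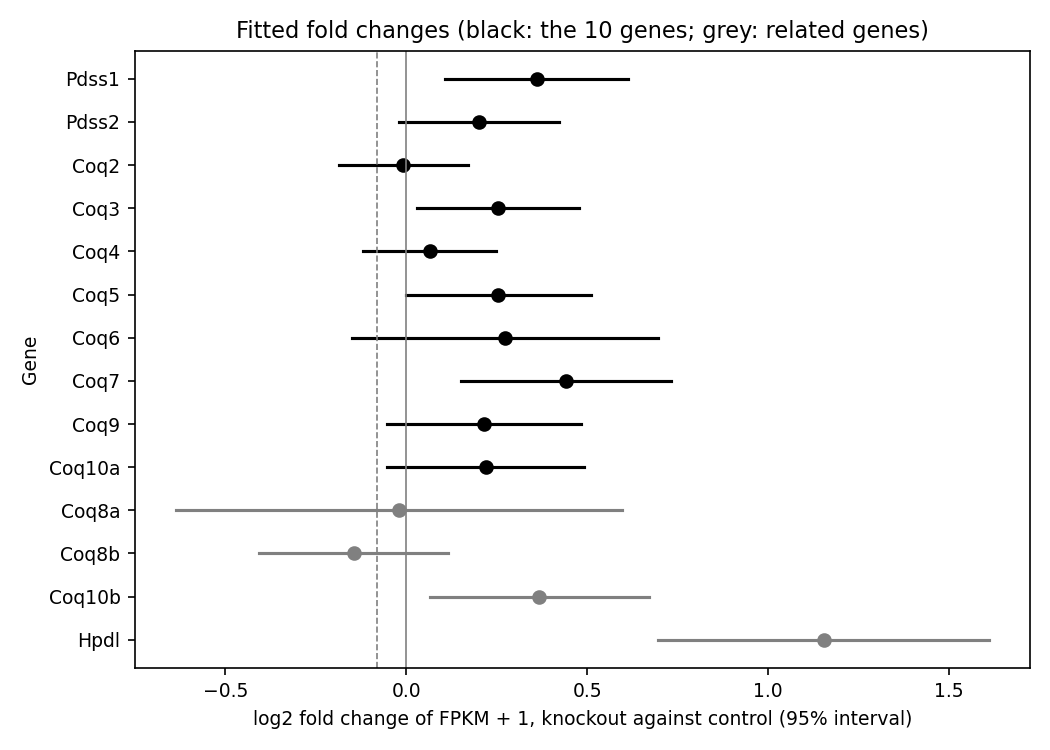
Fitted log2 fold change of FPKM + 1, knockout against control, with its 95% interval, for the 10 genes (black) and 4 related genes (grey); the solid line marks 0 and the dashed line the median of all genes tested, -0.08. The intervals of Pdss1, Coq3 and Coq7 lie above 0, that of Coq2 spans -0.19 to 0.17, and Hpdl lies farthest right at 1.15.

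Across libraries the 10 genes had a similar order. Control replicate 1 was the lowest of all 6 libraries for 9 of the 10, and knockout replicate 2 was the highest for 7, with knockout replicate 1 highest for Pdss1, Pdss2 and Coq2. Knockout replicate 3 was the lowest knockout for 8 of the 10, all but Coq4 and Coq9. With each gene set to its control mean, the median over the 10 genes was 89.3, 106 and 103% in controls and 118, 130 and 108% in knockouts. The summed level was 180, 222 and 209 FPKM across controls against 233, 253 and 223 FPKM across knockouts, so the highest control and lowest knockout differed by little.

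**Figure D3:**
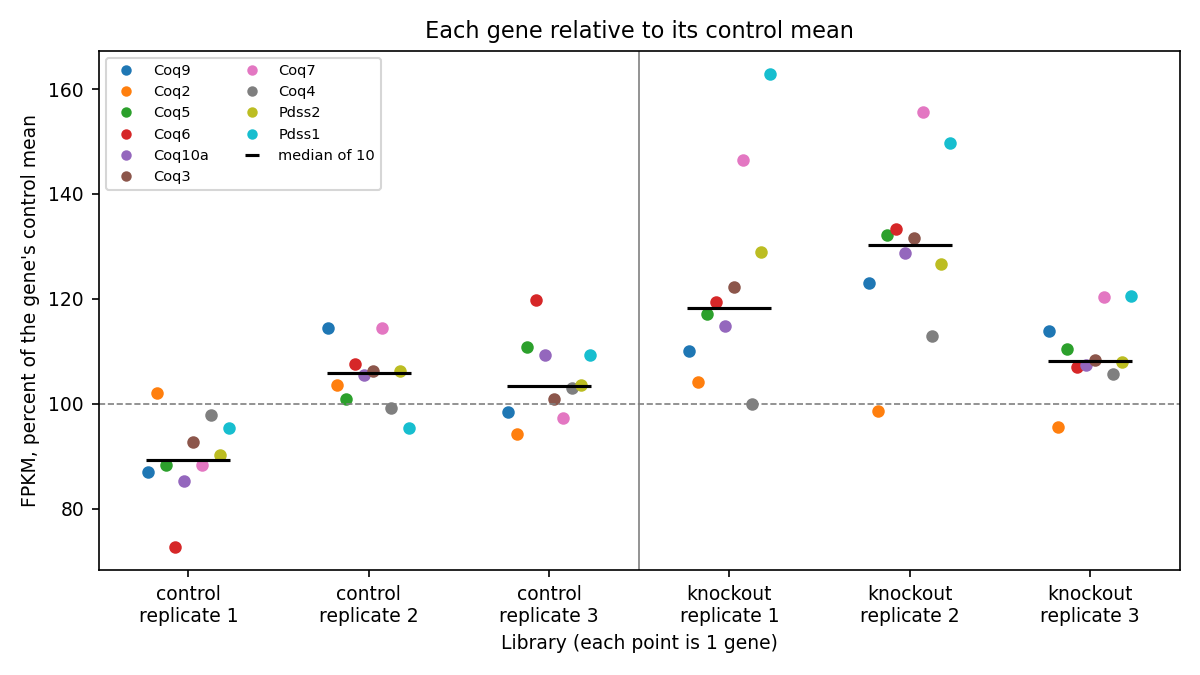
FPKM of each of the 10 genes as a percent of its control mean, by library, with each colour a gene and the black bar the median of the 10. The median is lowest in control replicate 1 at 89.3% and highest in knockout replicate 2 at 130%, and Coq2 stays near 100% while Pdss1 and Coq7 reach 163% and 156%.

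Among 12 further genes of the pathway, 11 were tested, and at an unadjusted p of 0.05 there were 2 higher and 1 lower, with a median log2 fold change of 0.04. At that p 6.98% of all genes tested were higher and 17.1% lower. Hpdl, a dioxygenase-like protein of a route that supplies the head group, had the largest difference in this list. It was at 4.45, 3.11 and 4.40 FPKM in controls and 11.02, 12.3 and 7.32 FPKM in knockouts, all above the controls. Its log2 fold change was 1.15 (SE 0.19, 95% interval 0.70 to 1.61, unadjusted p = 0.00053, adjusted p = 0.075 in limma), which was larger than that of any of the 10 and still missed the threshold. It lay between 1.02 and 1.36 when any 1 library was left out.

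Coq10b, the paralogue of Coq10a, was at 6.15, 4.47 and 6.11 FPKM in controls and 8.12, 7.57 and 6.64 FPKM in knockouts, without overlap (log2 fold change 0.37, SE 0.13, adjusted p = 0.15 in limma). Unlike 9 of the 10 genes, which were lowest in control replicate 1, it was lowest in control replicate 2, and Coq10a exceeded it by 2.53 to 4.29 times over the 6 libraries. The atypical kinase-like proteins Coq8a and Coq8b, which assist the complex, had no higher mean in knockouts, although Coq8a turned above 0 under both scalings tried. Coq8a varied most, at 40.4, 87.8 and 52.2 FPKM in controls and 48.8, 61.1 and 59.5 FPKM in knockouts, and its 95% interval ran from -0.64 to 0.60. Coq8b had 4.26 ± 0.33 FPKM over the control libraries (SD, n = 3) and 3.77 ± 0.595 FPKM over the knockout ones, with overlap and a fitted log2 difference of -0.15 (95% interval -0.41 to 0.12). Adck5, another member of that kinase-like family, averaged 2.07 FPKM over controls and 1.43 FPKM over knockouts, with no overlap (log2 fold change -0.34, adjusted p = 0.15 in limma). It had only 56 to 120 reads per library. With median-of-ratios scaling its unadjusted p was 0.0509 in limma, and the list then had 4 higher and 0 lower. Of all genes 13.0% were higher and 9.28% lower under that scaling. Stard7, which carries lipid between mitochondria and cytosol, had 23.8 and 26.2 FPKM with overlap, and the row named Fdx2 was below the filter. The annotation used has no gene of that symbol, so what this row measures is uncertain. The count of this list at an unadjusted p of 0.05 was 3, and 1 (Hpdl) without knockout replicate 1 or without knockout replicate 2. In these 2 fits 4.84% and 3.73% of all genes were higher.

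The mevalonate pathway supplies the isoprenoid units. Of 9 genes up to farnesyl and geranylgeranyl diphosphate, 8 were tested, 7 were above 0, and at an unadjusted p of 0.05 there were 3 higher and 0 lower, with a median of 0.40. The count of 3 was 5 without control replicate 2, where 6.31% of all genes were higher. In the fit of all libraries 34.0% of all genes were above 0, 6.98% higher and 17.1% lower. Mvd, the decarboxylase that makes isopentenyl diphosphate, was at 11.3, 12.4 and 12.2 FPKM in controls and 21.5, 15.8 and 20.1 FPKM in knockouts (log2 fold change 0.62, SE 0.12, adjusted p = 0.081 in limma). The groups were well apart. Hmgcs1 (51.4 and 94.0 FPKM) and Acat2 (65.6 and 92.5 FPKM), of the first steps, were also apart, and Pmvk (67.8 and 90.4 FPKM) was not. Fdps, whose product is the precursor for both the tail and sterols, was below the filter, with means of 0.34 and 0.70 FPKM. Every knockout lay above every control there, but on only 19 to 50 reads per library. Fdps was the lowest of the 9. Exons shared with other genes were not checked for it, and whether its reads were lost in counting was not tested, so its level is uncertain. With no filter the mevalonate list had 4 higher at an unadjusted p of 0.05, against 5% of all genes. Of the 5 genes of the sterol and dolichol branches, 1 was higher (Sqle, 6.38 and 9.54 FPKM) and 1 lower (Fdft1, which draws the precursor into sterols, 21.6 and 14.6 FPKM) at that p. Sqle did not overlap between genotypes, but Fdft1 did, with control replicate 3 (16.7 FPKM) below knockout replicate 3 (17.2 FPKM). Lss had 7.94 and 10.6 FPKM and Dhdds, of dolichol synthesis, 9.38 and 9.02 FPKM, both with overlap. The branch count of 2 was 1 (Sqle) without control replicate 1, knockout replicate 1 or knockout replicate 2, and under both scalings tried. In the first 3 of these fits, in the order named, 5.1%, 4.84% and 3.73% of all genes were higher. Under the scalings 13.0% and 12% were. Fdft1 lost the call in each of these fits, and also without control replicate 2, where Lss gained it.

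Enzymes on the reducing side of the coenzyme Q pool were uneven. Of 13 that reduce it or feed the enzymes that do, 9 were above 0, and at an unadjusted p of 0.05 there was 1 higher (Gpd2) and 1 lower (Sqor), with a median of 0.16. Of all genes tested 34.0% were above 0, and at that p 6.98% were higher and 17.1% lower. Under both scalings tried 11 of the 13 were above 0, against 49.8% and 47.4% of all genes. Gpd2, the glycerophosphate dehydrogenase of the inner membrane, was at 101, 130 and 90.8 FPKM across controls against 134, 141 and 142 FPKM across knockouts. Sqor, which oxidizes sulfide, went the other way, at 29.4, 28.1 and 22.9 FPKM in controls and 20.5, 17.5 and 20.1 FPKM in knockouts. Neither overlapped between genotypes, with log2 fold changes of 0.39 and -0.44 (adjusted p = 0.15 and 0.10 in limma). The complex II subunit Sdhd had 301 and 368 FPKM, and Prodh, of proline oxidation, 6.54 and 4.40 FPKM, both with overlap. The count of 2 was 1 (0 higher, 1 lower) without control replicate 1 or knockout replicate 2. Without control replicate 2 it was 4 (3 higher, 1 lower). In these fits, in the order named, 5.1%, 3.73% and 6.31% of all genes were higher, and the share lower was not counted.

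Complex III and cytochrome c, which take the electrons onward, were all above 0 in 10 of 10 genes, 6 of them at an unadjusted p of 0.05, with a median of 0.32. Of all genes tested 34.0% were above 0, and 6.98% were higher at that p. Group means in controls and knockouts were 133 and 193 FPKM for Cycs, 458 and 595 FPKM for Uqcrfs1, 251 and 310 FPKM for Cyc1, and 179 and 227 FPKM for Uqcrh. Single libraries moved the count of 6. Leaving out control replicate 1 or knockout replicate 1 gave 2, leaving out knockout replicate 2 gave 1, and leaving out control replicate 2 gave 10. In these fits, in the order named, 5.1%, 4.84%, 3.73% and 6.31% of all genes were higher. The difference between this median and that of the 10 coenzyme Q genes was not tested.

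**Figure D4:**
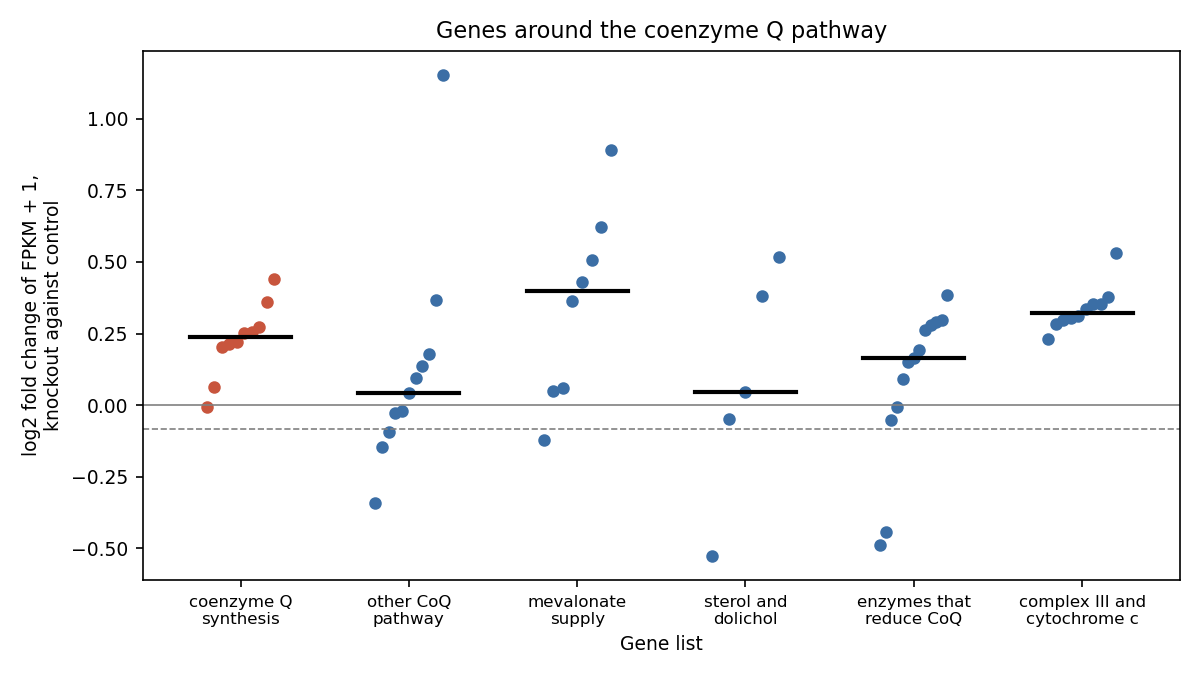
Fitted log2 fold change of each tested gene in 6 lists, sorted within a list, with a black bar at the list median, a solid line at 0 and a dashed line at the median of all genes tested (-0.08). The 10 coenzyme Q genes (red) have a median of 0.24, between those of the enzymes that reduce coenzyme Q (0.16) and of complex III with cytochrome c (0.32).

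Markers of cell types differed between the same libraries. Thermogenic adipocyte markers summed to 1548, 2842 and 3372 FPKM across controls against 4554, 5136 and 3459 FPKM across knockouts, with 9 of 9 above 0 and 6 of them higher at an unadjusted p of 0.05. As for the coenzyme Q genes, control replicate 1 was lowest and knockout replicate 2 highest, and Ucp1, the most abundant of them, was at 800 FPKM in the former and 3009 FPKM in the latter. Mature adipocyte markers summed to 11220 to 12160 FPKM across controls against 8611 to 9407 FPKM across knockouts, with 3 of 8 lower, among them Adipoq and the most abundant, Cfd. Under both scalings tried 5 of these 8, not 7, were below 0 and 2 were lower. Macrophage markers, led by Lyz2, summed to 583 to 777 FPKM and 368 to 478 FPKM, and 9 of 9 were lower at that p. Progenitor markers, led by Col3a1, summed to 394 to 943 FPKM and 363 to 479 FPKM, and 5 of 7 were lower, 3 under either scaling. Beside these counts, 34.0% of all genes tested were above 0, and 6.98% were higher and 17.1% lower at that p. With median-of-ratios scaling 49.8% were above 0, 13.0% higher and 9.28% lower. In whole tissue fewer cells of a type and less RNA per cell cannot be told apart. The part of these markers in the coenzyme Q values was not tested.

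Skeletal muscle, a tissue rich in mitochondria, was represented unevenly. Its 12 markers, led by Acta1, summed to 79.0, 18.3 and 53.7 FPKM in controls and 23.8, 118 and 371 FPKM in knockouts, with 11 of 11 tested above 0, 0 past an unadjusted p of 0.05, and Tnnc2 at 0 in all. Of all genes tested 34.0% were above 0. Knockout replicate 2, above every control in the sum of muscle markers, was the highest library for 7 of the 10 coenzyme Q genes. Knockout replicate 3, with the highest muscle sum, was the lowest knockout for 8 of the 10. The part of muscle RNA in these values was not tested. Without knockout replicate 3 the median log2 fold change of the 10 genes was 0.29.

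**Figure D5:**
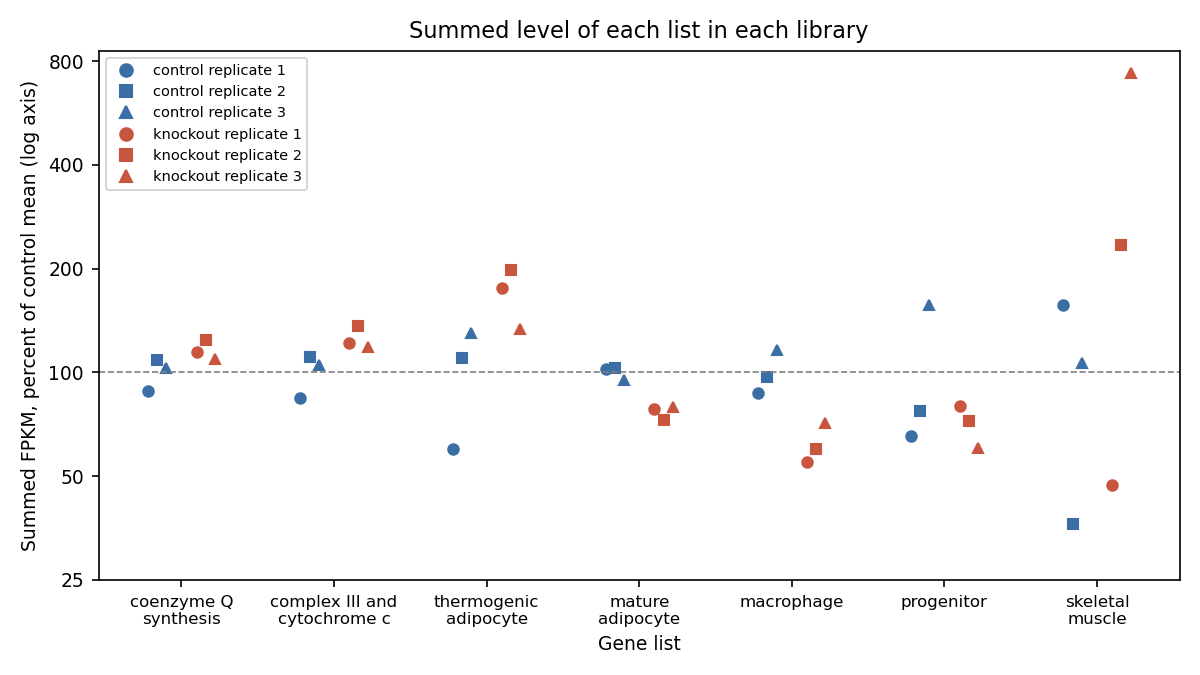
Summed FPKM of 7 gene lists in each library as a percent of the control mean, on a log axis, with blue points for controls and red points for knockouts. The coenzyme Q genes spread little beside the muscle markers, which sum to 18.3 FPKM in control replicate 2 and 371 FPKM in knockout replicate 3.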

How the data were processed

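Gene-level FPKM for 6 libraries were deposited by the authors. Per the labels' protocols a stranded mRNA kit was used. The tools cutadapt, HISAT2 and HTSeq and the build mm10 stand in the submitters' processing notes, and versions, annotation and strand setting were not given in the sources used here. The unit was read from the values: FPKM multiplied by merged exon length (GENCODE M21) and by 1 factor per library came out whole, to 0.05, in 97.7 to 98.0% of values of at most 20 reads. Of rows sharing a symbol the one with the highest mean was kept, which dropped 36 of 21936 rows.

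Genes reaching a group mean of 1 FPKM were fitted together on log2(FPKM + 1) with limma 3.58.1 in R 4.3.3, using its intensity trend, with genotype as the only term and p-values adjusted by the Benjamini-Hochberg method over 10787 genes. The fit was tested on simulated data, with fold changes all larger than the largest ratio of means of the 10 genes. That test therefore does not address differences of their size. Alternatives were a pseudocount of 0.1, no filter, a filter at 5 FPKM, 2 scalings, the replicate number as a block, each library left out, and voom on recovered reads of 10679 genes. The members and gene lists were chosen with earlier results of these data known. Named genes are the 10, Foxp4, Coq8a, Coq8b, Coq10b, up to 4 tested genes with the smallest unadjusted p in each of 5 related lists, and the most abundant marker of each cell type. Adipoq, Fdx2, Fdps, Krt14, Krt15, Tnnc2 and the genes that share exons were named after their values were seen.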

Additional observations from a re-analysis of the deposited data

How the results depend on the processing

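None of the 10 genes passed an adjusted p of 0.05 in limma under any of the 13 alternatives, voom included, which had 4 higher at an unadjusted p of 0.05. The number higher at that p was 3 as reported, 7 with median-of-ratios scaling (13% of all genes), 6 with upper-quartile scaling (12% of all genes) and 2 to 5 with 1 library left out (3.73 to 8.33% of all genes). The number with non-overlapping groups was 4 as reported, 8 under median-of-ratios or upper-quartile scaling (16.5% and 15.2% of all genes), 2 with a filter at 5 FPKM, which drops Pdss1, Pdss2 and Coq4 (12.1%), and 4 to 7 with 1 library left out (9.89 to 14.9%). The median log2 fold change ranged from 0.14 without control replicate 1 to 0.33 with median-of-ratios scaling. For the related lists genes past that p in either direction were counted. Median-of-ratios and upper-quartile scaling gave 1 and 1 for the sterol and dolichol branches, 6 and 5 for the enzymes that reduce coenzyme Q, and 10 and 8 for complex III with cytochrome c. With median-of-ratios scaling 13% of all genes were higher and 9.28% lower. With upper-quartile scaling 12% of all genes were higher, and 1129 of 10775 were lower. With 1 library left out these counts ranged from 1 to 2, 1 to 4 and 1 to 10. That of the other pathway genes ranged from 1 to 4 and that of the mevalonate list from 3 to 5. In those fits 3.73 to 8.33% of all genes were higher, and the share lower was not counted. The causes were not tested.

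Coq2, near 0, turned to 0.0876 and 0.0725 under the 2 scalings and ranged from -0.0481 to 0.0198 with 1 library left out. Coq8a turned to 0.0764 and 0.0611 and ranged from -0.2651 to 0.2861, and Dhdds turned to 0.0425 and 0.0285 and ranged from -0.1197 to 0.0117. The replicate numbers showed no sign of pairing: same-numbered deviations correlated at 0.07, 0.03 and -0.25, and differently numbered ones at -0.23 to 0.18. With deviations taken from means of 3 samples, this check cannot exclude a pairing. With the replicate block 3 of the 10 were still higher at an unadjusted p of 0.05, against 5.92% of all genes. Depth limits Pdss1, Pdss2 and Coq4 most, with 106 to 279 reads per library.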
